A study of Mus musculus with 9 samples.

Results

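The 7 genes Rdh14, Kidins220, Adi1, Trappc12, Stxbp6, G2e3 and Coch lie on mouse chromosome 12 and were chosen by their difference between Ms4a6c knockout and wild-type mice. They are 7 of 55291 genes in the deposited table of expected counts and 7 of the 23225 genes that were tested. Of the tested genes, 844 lie on chromosome 12. Bulk RNA-seq covered the main olfactory epithelium of 3 mice per genotype, 9 in all, at ages of 8 to 12 weeks. The wild-type mice were C57BL/6 littermate controls. The Ms4a6c knockout mice (C57BL/6; Ms4a6c-/-) carried an allele made by homologous recombination in a knockout consortium, and the Ms4a cluster knockout mice (C57BL/6; Ms4a cluster-/-) carried a CRISPR/Cas9 deletion of the Ms4a gene cluster. Each knockout was 1 line, so the loss of Ms4a6c and anything else that the line carries cannot be told apart in the Ms4a6c knockout. Each mouse is 1 library.

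The 7 genes serve different processes. Retinol dehydrogenases such as Rdh14 act on the step between retinol and retinaldehyde, the precursor of the retinoic acid that guides differentiation in the olfactory mucosa. Kidins220 is a membrane scaffold bound by neurotrophin receptors, and Adi1 is the acireductone dioxygenase of the pathway that returns methionine from the by-product of polyamine synthesis. Trappc12 is a subunit of a TRAPP complex, which tethers vesicles and activates Rab1 between the endoplasmic reticulum and the Golgi, whereas Stxbp6 (amisyn) binds SNARE proteins and restrains vesicle fusion. G2e3 is a ubiquitin ligase named for the cell cycle phase in which it was found, and Coch encodes cochlin, a secreted matrix protein with von Willebrand factor A domains best known from the inner ear.

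The targeted gene followed the labels. Ms4a6c had expected counts of 53.95, 90.34 and 81.53 in wild-type mice, of 0, 2.35 and 2 in Ms4a6c knockout mice, and of 0 in all 3 mice lacking the cluster. Library totals ran from 13954591 to 21987174 expected counts, so that 3 counts, the limit set by a count of 0, corresponded to 0.123 to 0.299 CPM (counts per 1000000 counts, on TMM-scaled library totals). In wild-type mouse 1 and Ms4a cluster knockout mouse 2, the gland transcript Bpifb9b took 10.4% and 10.2% of all counts, against 0.0264% to 3.28% in the others, and the members' values without these 2 libraries are also given. The tissue label was checked against marker lists: the 8 markers of mature olfactory sensory neurons summed to 9141.5 to 11712.7 CPM in every mouse, and none of the 12 marker lists had a gene at 0 in all mice.

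All 7 are protein-coding genes within 41.21 Mb of the GRCm38 assembly, and only some of them lie close together. Rdh14 (chr12:10390772-10395562, plus strand) comes first. Kidins220 (chr12:24974925-25063152, plus strand) follows after 14.58 Mb, and Adi1 (chr12:28675231-28682175, plus strand) after a further 3.61 Mb. Trappc12 (chr12:28690628-28750472, minus strand) ends 8.5 kb past the end of Adi1, so the pair lie tail to tail. Stxbp6 (chr12:44852484-45074709, minus strand) stands 16.1 Mb further on. G2e3 (chr12:51348061-51376986, plus strand) and Coch (chr12:51593341-51605771, plus strand) are separated by 216.4 kb, and G2e3 lies 6.27 Mb past Stxbp6. For none of the 7 did the transcripts of another gene match on the same strand over at least 300 bases at 90% identity. Adi1 matched 521 bases of Skint8 on the opposite strand, and Kidins220 shares 138 exon bases, 1.6% of its exons, with Gm36236 on the opposite strand.

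RefSeq promoter sequences (GRCm38.p6, 250 bases before to 50 bases after the start, coding strand) were matched for 6 of the 7 genes, all but Adi1. The sequences of 4 are shown because these genes hold the largest differences (Stxbp6, G2e3), the highest level (Coch) and a member that was higher in the knockout (Trappc12). Capitals mark matches, on either strand, to the GC box GGGCGG, the CCAAT box CCAAT, the TATA box TATAAA, the E-box CACGTG, the cAMP response element TGACGTCA, and CCCNNGGG, the core letters of the EBF motif of olfactory neurons. Overlapping matches were counted separately and run together in capitals.
Stxbp6, chr12:45074434-45074733, minus strand: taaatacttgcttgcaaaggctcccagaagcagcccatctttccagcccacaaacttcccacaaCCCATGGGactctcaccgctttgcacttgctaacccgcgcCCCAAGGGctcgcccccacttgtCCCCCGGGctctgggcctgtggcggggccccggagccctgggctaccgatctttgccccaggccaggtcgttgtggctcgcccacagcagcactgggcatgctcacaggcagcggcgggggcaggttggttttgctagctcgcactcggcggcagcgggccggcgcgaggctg
G2e3, chr12:51347980-51348279, plus strand: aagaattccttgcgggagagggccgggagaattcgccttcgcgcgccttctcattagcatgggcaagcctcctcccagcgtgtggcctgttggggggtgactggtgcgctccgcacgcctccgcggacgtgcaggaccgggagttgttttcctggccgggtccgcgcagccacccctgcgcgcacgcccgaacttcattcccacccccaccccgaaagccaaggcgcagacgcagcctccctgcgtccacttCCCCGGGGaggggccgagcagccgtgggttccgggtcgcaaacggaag
Coch, chr12:51593091-51593390, plus strand: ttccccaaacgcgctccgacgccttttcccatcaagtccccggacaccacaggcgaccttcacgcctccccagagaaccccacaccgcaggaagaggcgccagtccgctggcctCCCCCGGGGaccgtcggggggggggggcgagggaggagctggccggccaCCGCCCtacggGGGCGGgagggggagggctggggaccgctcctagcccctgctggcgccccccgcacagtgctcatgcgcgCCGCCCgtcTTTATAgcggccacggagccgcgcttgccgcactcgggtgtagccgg
Trappc12, chr12:28750351-28750650, minus strand: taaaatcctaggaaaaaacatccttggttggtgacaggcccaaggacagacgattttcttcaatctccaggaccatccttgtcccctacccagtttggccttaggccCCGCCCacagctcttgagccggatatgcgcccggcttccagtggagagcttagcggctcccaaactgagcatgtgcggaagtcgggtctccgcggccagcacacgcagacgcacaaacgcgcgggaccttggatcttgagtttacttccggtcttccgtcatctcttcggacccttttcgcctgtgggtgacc
CpG pairs numbered 12 in the Rdh14 promoter, 10 in Kidins220, 19 in Trappc12, 19 in Stxbp6, 31 in G2e3 and 32 in Coch, against a median of 7 and an upper quartile of 20 over 32851 promoters of the same length. The GC box occurred once each in Kidins220 and Trappc12 and at 3 places in Coch, and is found in 35.7% of all promoters. CCCNNGGG had 3 matches in Stxbp6, 1 in G2e3 and 2 overlapping ones in Coch, and occurs in 13.7% of all promoters. The TATA box letters were present in Coch (13.6% of all promoters), an E-box in Kidins220 (7.15%) and a CCAAT box in Rdh14 (37.4%), while the cAMP response element (1.79%) had no match in the 6 windows. No motif was common to the 6 promoters.

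Per kilobase of exon, the only scale on which levels of different genes are compared here, Coch was the most abundant of the 7 in wild-type epithelium, at 144.0 ± 11.4 CPM per kb (SD, n = 3). Adi1 followed at 51.5 ± 1.03, then Kidins220 at 24.5 ± 0.864 and Rdh14 at 21.5 ± 1.45 CPM per kb. Stxbp6 (8.81 ± 0.867), Trappc12 (3.23 ± 0.109) and G2e3 (2.59 ± 0.116 CPM per kb) were the lowest. No 2 adjacent genes in this order overlapped between mice. In Ms4a6c knockout mice the order differed in 1 place, with Trappc12 at 4.07 ± 0.0796 CPM per kb above Stxbp6 at 3.14 ± 0.167. In Ms4a cluster knockout mice the order was that of the wild type. Exon length was that of the merged exons of all annotated transcripts, 10.02 kb from 7 transcripts for Trappc12 and 5.3 kb from 6 for Stxbp6. The order between genes depends on this length.

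In the Ms4a6c knockout, 5 of the 7 genes were lower than in wild-type mice (Rdh14, Kidins220, Stxbp6, G2e3, Coch) and 2 were higher (Adi1, Trappc12). The genes were chosen by this comparison, so the values that follow describe the choice and carry no test. All 7 had an adjusted p under 0.05 by edgeR's quasi-likelihood test, where 0.435% of all tested genes did so (0.22% higher, 0.215% lower). In each of the 7 the ranges of the 2 genotypes did not overlap, which held for 18.3% of all tested genes. Lower levels of a transcript in bulk tissue can come from fewer cells of a type or from less RNA per cell, which cannot be told apart here.

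Stxbp6 showed the largest difference of the 7. It was at 50.9, 41.8 and 47.3 CPM in the 3 wild-type mice, at 15.9, 16.4 and 17.6 CPM in Ms4a6c knockout mice, and at 42.0, 57.9 and 40.6 CPM in Ms4a cluster knockout mice. Every Ms4a6c knockout mouse was below every other mouse, and the level was 2.81-fold lower than in wild type (log2 fold change -1.49 ± 0.14, SE). The highest value of each of the other genotypes came from the gland-rich library, and without these 2 libraries the log2 fold change was -1.42. The olfactory bulb markers summed to 81.6 CPM in Ms4a cluster knockout mouse 2, against 15.1 to 26.6 CPM in the other mice. Whether bulb or gland content bears on the Stxbp6 value of that mouse was not tested.

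G2e3, the ubiquitin ligase, was at 19.4, 20.9 and 21 CPM in wild type and at 9.84, 8.62 and 9.43 CPM in the Ms4a6c knockout. It measured 18.4, 18.4 and 18.0 CPM in the Ms4a cluster knockout. The Ms4a6c knockout was 2.2-fold lower than wild type (log2 fold change -1.14 ± 0.08, SE). Coch, 216.4 kb downstream on the same strand, had the highest counts of the 7, with 393.7, 460.2 and 441.3 CPM in wild type. Its values were 303.9, 279.2 and 275.2 CPM in the Ms4a6c knockout. Ms4a cluster knockout mice had 494.2, 428.3 and 465.8 CPM. Coch was thus 1.51-fold lower in the Ms4a6c knockout (log2 fold change -0.59 ± 0.08, SE), and its lowest wild-type and lowest Ms4a cluster knockout values were those of the gland-rich libraries. Without those libraries the log2 fold change of Coch was -0.65.

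Rdh14, the retinol dehydrogenase, measured 33.3, 32.7 and 29.4 CPM in wild type, 19.1, 19.5 and 20.8 CPM in the Ms4a6c knockout, and 31.0, 30.3 and 31.9 CPM without the Ms4a cluster. The Ms4a6c knockout mice stood apart from the other 6, at 1.61-fold below wild type (log2 fold change -0.68 ± 0.07, SE). Kidins220, the neurotrophin receptor scaffold, measured 203.8, 213.8 and 218.5 CPM in wild type and 155.6, 156.0 and 152.9 CPM in the Ms4a6c knockout. Its values in the Ms4a cluster knockout were 197.6, 190.2 and 214.1 CPM. Kidins220 was 1.37-fold lower in the Ms4a6c knockout than in wild type (log2 fold change -0.45 ± 0.06, SE), with a coefficient of variation of 1.08% among the 3 knockout mice. Without the gland-rich libraries the log2 fold change was -0.65 for Rdh14, -0.48 for Kidins220 and -1.17 for G2e3, and it was 0.58 for Adi1 and 0.32 for Trappc12. All 7 members had an edgeR adjusted p under 0.05 in that setting.

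Adi1 and Trappc12, the tail-to-tail pair, were the members with higher values in the Ms4a6c knockout. Adi1, the methionine salvage enzyme, was at 95.8, 99.4 and 96.5 CPM in wild type, at 155.2, 141.6 and 142.3 CPM in the Ms4a6c knockout, and at 88.6, 91.2 and 95.3 CPM in the Ms4a cluster knockout. That was 1.51-fold above wild type in the Ms4a6c knockout (log2 fold change 0.59 ± 0.06, SE). Trappc12, the vesicle tethering subunit, was at 31.8, 33.6 and 31.7 CPM in wild type, at 40.9, 40.0 and 41.6 CPM in the Ms4a6c knockout, and at 35.4, 35.7 and 36.0 CPM in the Ms4a cluster knockout. Its 3 genotypes formed 3 ranges with no overlap, the Ms4a cluster knockout in the middle, and the Ms4a6c knockout was 1.26-fold above wild type (log2 fold change 0.34 ± 0.06, SE).

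**Figure D1:**
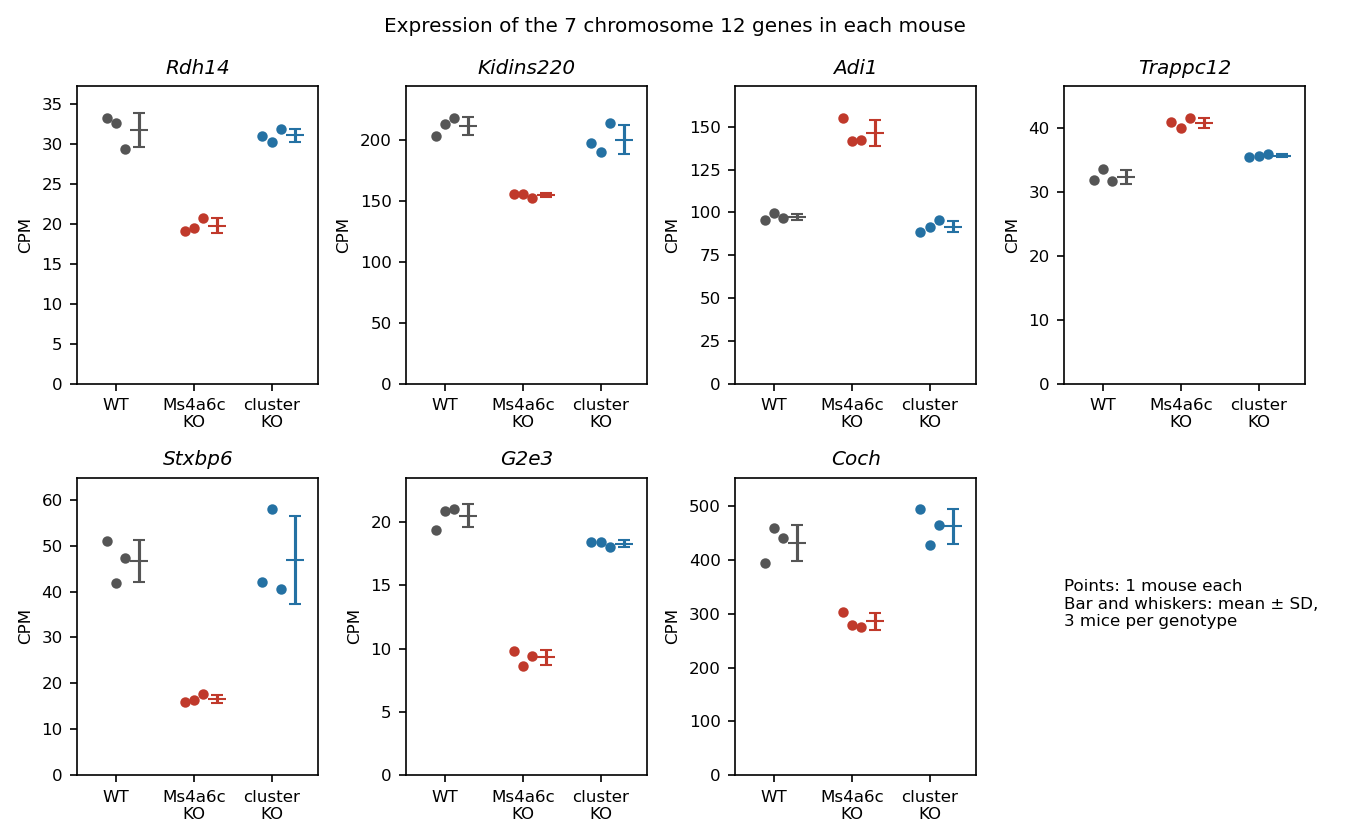
Expression (CPM, axis from 0) of the 7 genes in each mouse by genotype; points are mice and the bars beside them show the mean ± SD of 3 mice. The Ms4a6c knockout mice (red) stand apart from the other 6 mice in every panel, above them in Adi1 and Trappc12 and below them in the other 5.

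Trappc12 was the member nearest the threshold, with an adjusted p of 0.0366 by edgeR's quasi-likelihood test. The chromosome 12 genes just outside it were Nemf (log2 fold change -0.31, adjusted p = 0.0562) and Gpr135 (log2 fold change -0.86, adjusted p = 0.0607). Single mice decided the call of 3 members. For Trappc12 the adjusted p by edgeR lay between 0.0551 and 0.178 without any one of the 3 wild-type mice, any one of the 3 Ms4a6c knockout mice, or Ms4a cluster knockout mouse 1 or 3. For Kidins220 it was 0.0509 without wild-type mouse 2, 0.0518 without wild-type mouse 3 and 0.0545 without Ms4a6c knockout mouse 3. For Coch it was 0.0721 and 0.07 without wild-type mouse 2 or 3, and 0.0766 and 0.0844 without Ms4a6c knockout mouse 2 or 3. With plain library sizes in place of TMM scaling, which gave the 2 gland-rich libraries factors of 0.702 and 0.704, edgeR called only Stxbp6 (1 of 7). The direction of all 7 was the same in each of these fits.

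Ratios of counts within a mouse do not depend on the scaling between libraries. The ratio of Adi1 to G2e3 was 4.93, 4.75 and 4.58 in wild-type mice, 15.8, 16.4 and 15.1 in Ms4a6c knockout mice, and 4.82, 4.95 and 5.3 in Ms4a cluster knockout mice. For Adi1 over Rdh14 the mean was 3.07 ± 0.209 (SD, n = 3) in wild type, 7.41 ± 0.668 in the Ms4a6c knockout, and 2.95 ± 0.0837 with the cluster deleted. The members therefore stood in different proportions to each other in the Ms4a6c knockout, also within a direction. Across directions this follows from how the genes were chosen. Within a direction, Adi1 over Trappc12 and Coch over G2e3 also lay outside the wild-type range with the cluster deleted, whereas Stxbp6 over G2e3 overlapped it. Between the 2 higher genes, Adi1 over Trappc12 was 3.01 ± 0.0445 in wild type, 3.59 ± 0.193 in the Ms4a6c knockout, and 2.57 ± 0.075 with the cluster deleted. Between 2 of the lower ones, Coch over G2e3 was 21.1 ± 0.865 in wild type, 30.8 ± 1.6 in the Ms4a6c knockout, and 25.3 ± 1.89 with the cluster deleted. The ratio of Stxbp6 to G2e3, the most reduced pair, was 2.29 ± 0.315 in wild type, 1.79 ± 0.157 in the Ms4a6c knockout, and 2.56 ± 0.502 with the cluster deleted.

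**Figure D2:**
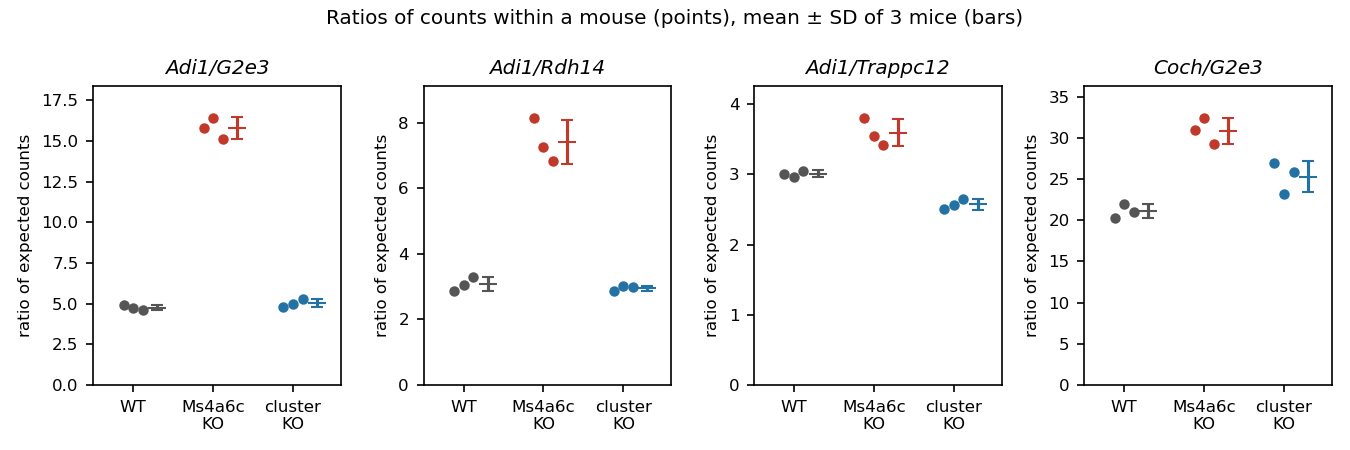
Ratio of the expected counts of 2 members within the same mouse, from 0, for 4 pairs; points are mice and bars the mean ± SD of 3 mice. The Adi1 to G2e3 ratio is 15.1 to 16.4 in the Ms4a6c knockout and 4.58 to 5.3 in the other 6 mice.

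The Ms4a cluster knockout mice also lack Ms4a6c and were not used to choose the 7 genes, so the comparison of these mice with wild type is the one that was tested. It shares the wild-type mice with the comparison above. Of the 7 members, 0 had an adjusted p under 0.05 with edgeR (0.0258% of all tested genes) and 0 with DESeq2. At an unadjusted p under 0.05, edgeR found 1 of the 7 (Trappc12), or 14.3%, against 4.93% of all tested genes. The ranges did not overlap in 3 of the 7, which held for 9.86% of all tested genes: Trappc12 was above wild type, and Adi1 and G2e3 below it.

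The intervals bound how far these genes could have moved in the Ms4a cluster knockout. For Stxbp6 the log2 fold change was 0.00 with a 95% interval of -0.29 to 0.29 (edgeR adjusted p = 1.0). For Rdh14 it was -0.03 (-0.19 to 0.13), and for Kidins220 -0.08 (-0.21 to 0.05). None of these intervals reached the value in the Ms4a6c knockout, given above for each gene. Coch measured 0.10 (-0.09 to 0.29) and Adi1 -0.08 (-0.21 to 0.04), both opposite in sign to their Ms4a6c knockout values. G2e3 measured -0.16 (-0.34 to 0.02), the interval lying above its Ms4a6c knockout value of -1.14. Trappc12 alone had an interval that excluded 0, at 0.14 (0.01 to 0.27), with an unadjusted p of 0.0329 and an adjusted p of 0.968 by edgeR's quasi-likelihood test. Without the 2 gland-rich libraries the count was again 0 of 7.

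Set directly against the Ms4a cluster knockout, the Ms4a6c knockout differed in 6 of the 7 genes at an adjusted p under 0.05 by edgeR (0.443% of all tested genes), and in 6 of 7 without the gland-rich libraries. This comparison shares the Ms4a6c knockout mice by which the genes were chosen, and its values are therefore a description. The log2 fold change was -1.49 ± 0.14 (SE) for Stxbp6, -0.97 ± 0.08 for G2e3 and -0.69 ± 0.08 for Coch. Among the others it was -0.65 ± 0.07 for Rdh14, -0.37 ± 0.06 for Kidins220 and 0.67 ± 0.06 for Adi1. Trappc12 was the exception, with 0.19 ± 0.06 and an adjusted p of 0.296 by edgeR. The call for Kidins220 (adjusted p = 0.0263) was lost without wild-type mouse 2 or 3, any one Ms4a6c knockout mouse, or Ms4a cluster knockout mouse 1 or 3, where the adjusted p by edgeR lay between 0.0534 and 0.158.

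**Figure D3:**
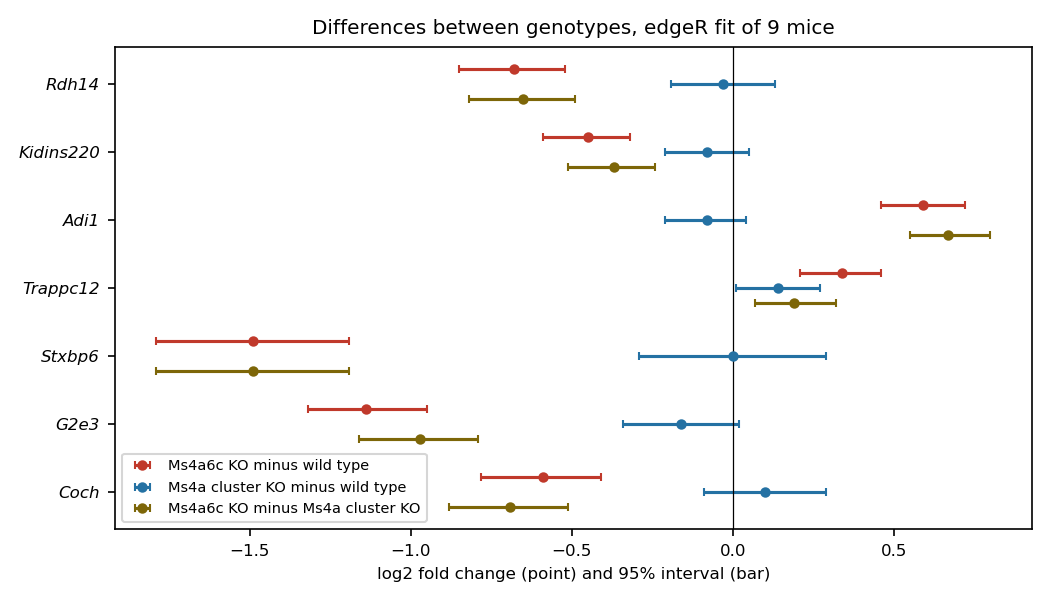
Log2 fold change (points) and 95% interval (bars) of each of the 7 genes in the 3 comparisons of genotypes, from the edgeR fit of all 9 mice. The intervals of the Ms4a cluster knockout against wild type (blue) include 0 for all genes but Trappc12 (0.01 to 0.27).

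Other genes of chromosome 12 also differed in the Ms4a6c knockout. Of 837 tested genes on the chromosome outside the 7, an adjusted p under 0.05 by edgeR was found for 7 (0.836%), against 0.405% of all placed genes outside the 7, and DESeq2 called 22 (2.63%), against 1.45%. In the Ms4a cluster knockout none of the 837 was called by edgeR or DESeq2, and an unadjusted p under 0.05 was found for 40 (4.78%), compared with 4.92% of all placed genes. Acp1, a low molecular weight tyrosine phosphatase, fell from 69.9 ± 1.63 CPM (SD, n = 3) in wild type to 31.6 ± 0.77 in the Ms4a6c knockout (edgeR adjusted p = 7.21e-05). Transcripts of 4 other genes match Acp1 on the same strand over at least 300 bases, so its counts depend on how reads were divided. Id2, an inhibitor of basic helix-loop-helix factors, lies 30.6 kb past Kidins220 and fell from 44.8 ± 0.932 to 24.2 ± 2.37 CPM (edgeR adjusted p = 0.00225), and 1 gene matches it in this way. Ap4s1, a small subunit of a vesicle adaptor complex, lies 85.3 kb past Coch and fell from 27.1 ± 0.63 to 13.8 ± 1.53 CPM (edgeR adjusted p = 0.000468).

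Ap4s1 and the other 4 genes called on the chromosome had no same-strand match of at least 300 bases. Snapc1 matched Gm49321 on the same strand over 298 bases, and some of its expected counts were not whole numbers. Egln3, a prolyl hydroxylase that acts on hypoxia-inducible factor, rose from 5.6 ± 0.558 to 15.6 ± 0.462 CPM (log2 fold change 1.48, edgeR adjusted p = 0.00286), and lies 2.57 Mb past Coch. Snapc1, a subunit of the complex that activates small nuclear RNA genes, fell from 28.8 ± 0.843 to 16.2 ± 1.19 CPM (log2 fold change -0.83). The neighbouring disulfide isomerase genes Agr3 and Agr2 went opposite ways. Agr3 fell from 24.6 ± 1.13 to 14.3 ± 0.806 CPM and Agr2 rose from 205.0 ± 4.51 to 253.8 ± 5.53 CPM (edgeR adjusted p = 0.00135 and 0.0354). They lie between Trappc12 and Stxbp6, 7.18 and 7.24 Mb past the former. Higher and lower genes were thus interspersed along the chromosome.

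**Figure D4:**
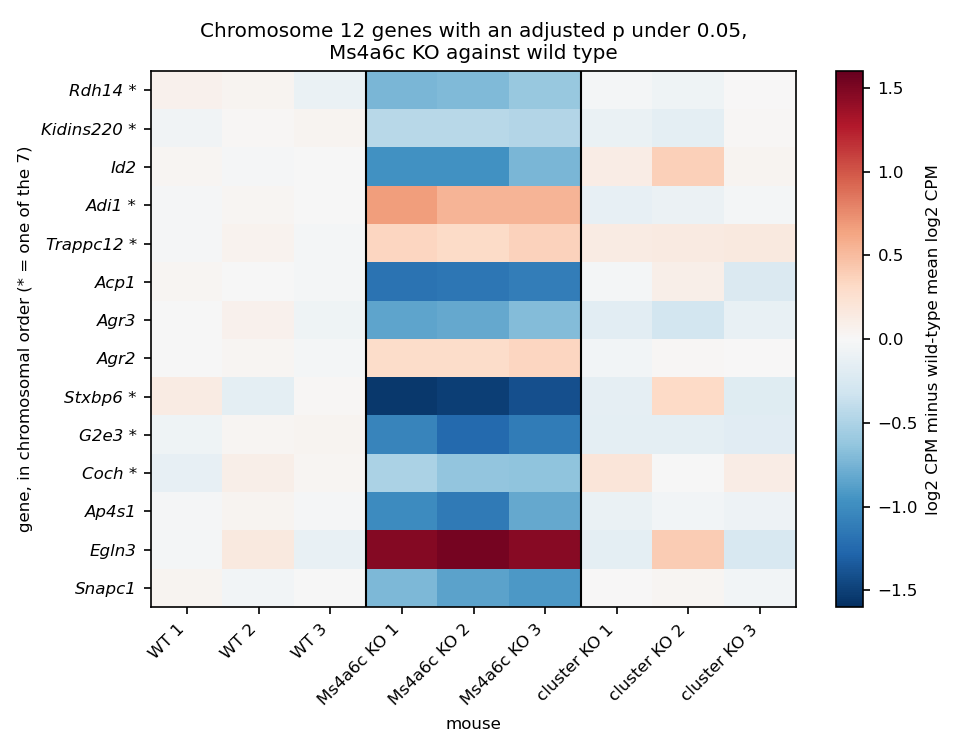
Log2 CPM minus the mean log2 CPM of the wild-type mice (colour scale) for the 14 chromosome 12 genes with an adjusted p under 0.05 in the Ms4a6c knockout against wild type, in chromosomal order, in each of the 9 mice; the 7 members bear a star. Colour is stronger in the 3 Ms4a6c knockout mice than in most other mice, with 4 genes higher (Adi1, Trappc12, Agr2, Egln3) and 10 lower. It is palest in these 3 mice for Agr2 (log2 fold change 0.31), Trappc12 (0.34) and Kidins220 (-0.45).

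The genes around each member were examined next, taking the 10 nearest tested genes on each side, which gave 84 different genes. In the Ms4a6c knockout 3 of the 84 (3.57%) had an adjusted p under 0.05 by edgeR, against 0.435% of all tested genes, and these were Id2, Ap4s1 and Egln3. At an unadjusted p under 0.05 there were 26 (31.0%), against 10.5% of all tested genes. In the Ms4a cluster knockout 0 of the 84 were called by edgeR and 0 by DESeq2, with 3 (3.57%) at an unadjusted p under 0.05 against 4.93% of all. The range of wild type was not overlapped in 26 of the 84 by the Ms4a6c knockout and in 16 by the Ms4a cluster knockout. Over all tested genes this held for 18.3% and 9.86%. The neighbours' counts in the Ms4a6c knockout rest on the same wild-type and Ms4a6c knockout mice by which the members were chosen. Those in the Ms4a cluster knockout share only the wild-type mice. Without the gland-rich libraries edgeR called 8 of the neighbours rather than 3 in the Ms4a6c knockout. The calls over all tested genes went from 101 to 350 (1.54%) in that setting. The median log2 fold change of the 84 in the Ms4a6c knockout was -0.10, against 0.00 over all tested genes.

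Around Rdh14 none of 20 neighbours was called by edgeR or DESeq2, 4 had an unadjusted p under 0.05, and their median log2 fold change was 0.06 beside -0.68 for Rdh14. Around Stxbp6, likewise none of 20 was called by either tool and 3 had an unadjusted p under 0.05, with a median of -0.08. Around Adi1 and Trappc12, which share their neighbours, 9 of 20 had an unadjusted p under 0.05, none was called by edgeR and 4 were by DESeq2, with a median of -0.43 while both members were higher. Of the 20 around Kidins220, 8 had an unadjusted p under 0.05, Id2 was called lower by edgeR and 3 genes were called by DESeq2, with a median of -0.34 beside -0.45 for Kidins220. Kidins220 shares its neighbours from Gm36723 to Colec11 with Adi1 and Trappc12. Gm36723, Rnf144a, Cmpk2, Sox11 and Colec11 were counted at an unadjusted p under 0.05 by edgeR around all of these members. Stxbp6 shares its neighbours from Nova1 to Prkd1 with G2e3, so the counts around different members are partly of the same genes. G2e3 and Coch share most of their neighbours. Around G2e3, 7 of 20 had an unadjusted p under 0.05, Ap4s1 was called lower by edgeR and 3 genes were called by DESeq2. Around Coch these counts were 8 of 20 and 4 by DESeq2, and edgeR called Ap4s1 lower and Egln3 higher. Both sets of neighbours had a median of -0.15. The nearest gene before the pair, Rnaseh1, which degrades RNA in RNA-DNA hybrids, measured 8.41 ± 0.324 CPM in wild type and 8.08 ± 0.325 in the Ms4a6c knockout. Beyond Trappc12, Eipr1, a partner of vesicle tethering complexes, measured 14.5 ± 0.613 and 16.3 ± 1.83 CPM, with an edgeR adjusted p of 0.666. Between G2e3 and Coch lies Scfd1, a SNARE-binding protein of the early secretory pathway, with 60.5 ± 6.37 CPM in wild type and 48.6 ± 2.27 in the Ms4a6c knockout (log2 fold change -0.31, edgeR adjusted p = 0.33). Strn3, a striatin scaffold on the other side of Coch, had a log2 fold change of -0.29 (edgeR adjusted p = 0.12) and was called by DESeq2. In the Ms4a cluster knockout Strn3 measured -0.19 against wild type (edgeR unadjusted p = 0.0149, adjusted p = 0.968). The nearest tested genes of Rdh14, Kidins220 and Stxbp6 (Gm5182 and Gm4928, Gm36236 and Gm47701, Gm6125 and Gm48508) are pseudogenes or noncoding RNAs with means from 0.11 to 0.477 CPM, and none was called against wild type by edgeR or DESeq2. Gm48508 was at 0 CPM in the Ms4a6c knockout, 0.332 ± 0.149 in wild type and 0.717 ± 0.2 with the cluster deleted, all near the limit given above. Its edgeR adjusted p in the Ms4a6c knockout was 0.0822 against wild type and 0.0284 against the Ms4a cluster knockout.

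**Figure D5:**
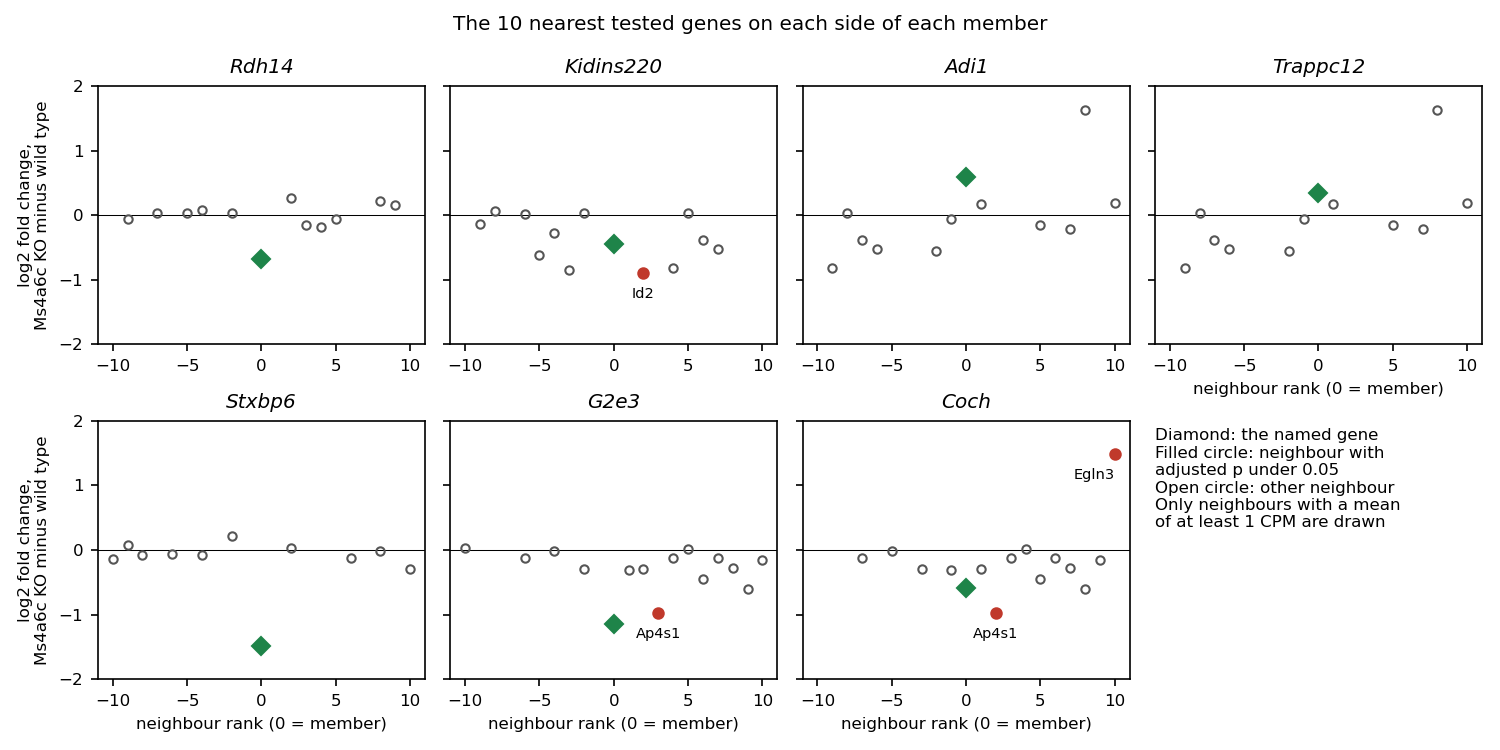
Log2 fold change of the Ms4a6c knockout against wild type for each member (diamond, rank 0) and for its neighbours by rank along the chromosome, drawn where the neighbour's mean was at least 1 CPM; filled circles have an adjusted p under 0.05. Rdh14 (-0.68) and Stxbp6 (-1.49) stand below drawn neighbours close to 0, and Adi1 (0.59) and Trappc12 (0.34) stand above all but 1 of the neighbours drawn. Gm48508, next to Stxbp6, is not drawn (mean 0.35 CPM, log2 fold change -5.58).

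The other genes of each member's pathway were then counted, from lists that leave the members out. Of 32 tested genes of retinoid metabolism, none was called in the Ms4a6c knockout by edgeR or DESeq2, and 5 (15.6%) had an unadjusted p under 0.05. Over all tested genes, 10.5% had an unadjusted p under 0.05 by edgeR in this comparison, and DESeq2 called 1.48%. Aldh1a1, which makes retinoic acid, was at 353.6 ± 47.5 CPM in wild type and 377.7 ± 31.5 in the Ms4a6c knockout, and the retinoic acid receptor gene Rarg at 160.8 ± 9.14 and 173.7 ± 5.25 CPM. Of 21 tested neurotrophin signalling genes none was called by either tool, and 3 (14.3%) had an unadjusted p under 0.05. The neurotrophin receptor partner Sort1 was at 188.9 ± 23.5 and 178.4 ± 12.3 CPM, and the adaptor gene Crk at 152.7 ± 1.4 and 145.6 ± 7.25 CPM. The median log2 fold change was 0.03 for the retinoid list and -0.08 for the neurotrophin list, against 0.00 over all tested genes.

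Among 25 tested genes of methionine salvage and polyamine metabolism, 1 fell in the Ms4a6c knockout and none rose by edgeR, against 0.435% of all tested genes, and the same count came from DESeq2. It was Ahcy, which hydrolyses S-adenosylhomocysteine, at 37.5 ± 0.554 CPM in wild type, 12.0 ± 0.453 in the Ms4a6c knockout, and 36.8 ± 2.6 with the cluster deleted (log2 fold change -1.63 against wild type, edgeR adjusted p = 2.62e-06). Transcripts of 3 other genes match Ahcy on the same strand, the longest over 2083 bases, so how reads were divided bears on this value. The list had 4 genes (16.0%) at an unadjusted p under 0.05 by edgeR, against 10.5% of all tested genes, and its median was 0.02. None of 16 tested TRAPP complex and Rab1 genes was called by either tool, with 1 (6.25%) at an unadjusted p under 0.05, and the median was -0.02. Rab1a, the GTPase that TRAPP complexes activate, was at 213.9 ± 19.3 and 207.0 ± 10.6 CPM, and Rab1b at 146.7 ± 7.85 and 148.9 ± 5.21 CPM.

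Of 27 tested SNARE and exocytosis genes none was called by edgeR or DESeq2, and 2 (7.41%) had an unadjusted p under 0.05. The calcium sensor gene Syt1 was at 232.4 ± 6.61 CPM in wild type and 236.4 ± 5.77 in the Ms4a6c knockout, and the fusion clamp gene Cplx2 at 194.0 ± 1.22 and 204.7 ± 22.3 CPM. None of 20 tested genes of G2 and mitosis was called by either tool, with 1 (5.0%) at an unadjusted p under 0.05. The proliferation marker Mki67 was at 32.2 ± 4.62 and 33.6 ± 4.15 CPM, and Top2a, which untangles chromosomes, at 30.0 ± 8.48 and 27.5 ± 1.94 CPM. Of 14 tested genes with von Willebrand factor A domains none was called by edgeR, and 4 (28.6%) had an unadjusted p under 0.05. DESeq2 called 3 (Vwa5a, Col6a3 and Col14a1). The collagen genes Col12a1 and Col6a1 were at 90.5 ± 19.3 and 56.2 ± 10.3 CPM in wild type and at 79.4 ± 3.63 and 48.3 ± 1.04 in the Ms4a6c knockout. In the Ms4a cluster knockout none of the 7 lists had a gene called by edgeR or DESeq2, with at most 2 genes of a list at an unadjusted p under 0.05. Over all tested genes, 4.93% had such an unadjusted p by edgeR.

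Cell type markers moved with the genotype in part. The 6 sustentacular cell markers summed to 19417.6 to 20679.8 CPM in wild type, 24545.9 to 26387.9 in the Ms4a6c knockout, and 19459.3 to 21979.7 with the cluster deleted, so the Ms4a6c knockout did not overlap the others. None of the 6 was called by edgeR, 4 had an unadjusted p under 0.05 (3 higher, 1 lower), and DESeq2 called 4. Over all tested genes, 10.5% had an unadjusted p under 0.05 by edgeR, and DESeq2 called 1.48%. The 6 fibroblast markers summed to 3317.9 to 7607.7 CPM in wild type, 3129.5 to 4349.3 in the Ms4a6c knockout, and 4477.8 to 4917.2 with the cluster deleted, with 4 lower at an unadjusted p under 0.05 and 2 called by DESeq2. The 8 gland markers summed to 4458.5 to 34404.0 CPM in the Ms4a6c knockout and reached 214794.0 and 218491.6 in the gland-rich libraries. For mature neurons the sums were 10251.8 to 11712.7 CPM in wild type and 11165.7 to 11569.8 in the Ms4a6c knockout. The part of cell composition in the differences of the 7 genes was not tested.

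Finally, for each member the 3 genes with the most similar pattern were named, out of 16537 genes with a mean of at least 1 CPM, by the root mean square difference of log2 CPM centred over the 9 mice. This measure describes 9 libraries that share genotype and scaling, and the members' genotype difference dominates it. For Rdh14 the closest was Agr3 (0.078), followed by Olfml3 and Eme2. Kidins220 was followed by Lamtor3 (0.042), Vcp and Casc4, and Adi1 by Sqor (0.081), Ppip5k1 and Lrrc43. Trappc12 was closest to 9430015G10Rik (0.044), Ap1s3 and Plekha8, and Stxbp6 to Ahcy (0.174), Capza1 and Acp1. For G2e3 the closest was its neighbour Ap4s1 (0.096), followed by Rnps1 and Acp1, and for Coch it was Ddit4l (0.093), followed by H2bc21 and Sspn. Among these, Eme2, Lamtor3, Vcp, Casc4, Ap1s3, Plekha8, Ahcy, Capza1, Acp1 and Rnps1 have transcript matches to other genes on the same strand over at least 300 bases at 90% identity. None of the genes listed was another member, and Agr3, Ap4s1 and Acp1 were the ones on chromosome 12.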

How the data were processed

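Main olfactory epithelium of 9 mice (3 wild type, 3 Ms4a6c knockout, 3 Ms4a cluster knockout, grouped by the labels) was sequenced as directional poly-A libraries. The authors aligned paired-end reads with STAR (2.6.1) in DolphinNext and deposited expected counts from RSEM (1.3.1) on a GENCODE annotation of GRCm38. RSEM divides reads shared by similar transcripts, which can move counts between near-identical genes. Rounded expected counts were used, genes with at least 10 counts over the 9 mice were kept (23225), and edgeR (4.0.16) with TMM scaling, the quasi-likelihood test and Benjamini-Hochberg adjustment was fitted to all 9 mice. CPM used TMM-scaled library sizes. The fit was checked on simulated data. Totals of 13954591 to 21987174 counts per library set the precision, and limits from a count of 0 cover counting error only. Where nothing says that samples are more than separate mice of one genotype, p-values measure the spread between those mice.

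The members and all gene lists were chosen with earlier results of these data known. Genes named besides the members were the targeted gene, other chromosome 12 genes with an adjusted p under 0.05 in the Ms4a6c knockout and the 2 just outside, the nearest tested gene on each side, called genes of each pathway list or else its 2 most abundant, and the 3 genes with the most similar pattern. Markers of doubtful libraries, DESeq2-only calls and transcript matches were named after their values were seen. Positions came from GENCODE M21 (99.6% of deposited genes matched), matches between transcripts from megablast (2.17.0), and promoters from RefSeq. Alternatives were other size factors, plain library size, other filters, only the genotypes compared, replicate number as a block, DESeq2 (1.42.0), leaving out each mouse, a threshold of 0.01, and wider or narrower windows of neighbours. Leaving out the 2 gland-rich libraries was chosen after seeing the data.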

Additional observations from a re-analysis of the deposited data

How the results depend on the processing

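The 7 members kept their direction in the Ms4a6c knockout under all 17 alternatives. The number called (7) was 1 with plain library sizes, where the median of all genes rose by 0.18 on the log2 scale, and 4 to 7 without single mice. Stxbp6 was called in all 17, Rdh14, Adi1 and G2e3 in 16, Kidins220 in 13, Coch in 11 and Trappc12 in 6. Against the Ms4a cluster knockout the count (6) was 1 with plain library sizes and 5 to 6 without single mice. With the cluster deleted, the count against wild type was 0 throughout, Rdh14 changed sign to 0.02 without the gland-rich libraries, and Stxbp6 lay between -0.17 and 0.09. Neighbours called (3) numbered 1 with plain library sizes, 6 with no filter, 9 by DESeq2, 8 without the gland-rich libraries and 3 to 5 without single mice (5 without wild-type mouse 1 or Ms4a cluster knockout mouse 2). Pathway genes called (1) numbered 4 by DESeq2, 3 without the gland-rich libraries and 1 to 2 without single mice (2 without wild-type mouse 1, Ms4a6c knockout mouse 1 or Ms4a cluster knockout mouse 2). Over all genes, 101 were called in the Ms4a6c knockout against wild type, 343 by DESeq2, 182 with no filter, 350 without the gland-rich libraries and 59 without wild-type mouse 2. The cause of these shifts was not tested.

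Same-numbered mice of different genotypes had correlations of -0.54 to 0.11, and different-numbered mice had -0.31 to 0.52. Replicate numbers were not treated as pairs in the main fit. Whether they mark a shared litter or batch was not tested. With the replicate block, 5 of the 7 members were called in the Ms4a6c knockout against wild type, Coch (adjusted p = 0.0694) and Trappc12 (0.131) being lost by edgeR, 5 against the Ms4a cluster knockout, 0 with the cluster deleted, 3 neighbours and 1 pathway gene.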
